A study of Mus musculus with 5 samples.

Results

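The genes described here are 34 interferon-induced genes, read out in cells sorted from mouse kidney papillae, where the medulla ends and the collecting ducts drain. They were chosen by name as known targets of interferon, not by their values in these arrays, though earlier results of these data were known. All 34 had a probe on the array, among 20368 genes with a probe, and 29 of them were bright enough to be tested, among 17754 genes tested. The tested members were those with a probe at 3 times the negative control probe or more, in at least 1 population on at least 3 arrays. The other 5 members (Ifit1, Oasl2, Stat2, Gbp2 and Gbp3) lay below that limit. By role, the members comprised 22 type I interferon targets, 4 transcription factors of the response, 4 genes of antigen processing and 4 interferon-gamma-induced GTPases.

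Each array compared GFP+ with GFP- cells of 1 biological replicate, and there were 5 replicates with 1 array each. Both populations came from H2B-GFP mice, in which a histone fused to GFP labels the chromatin. Doxycycline was given during embryonic life and the label was then chased until an age of about 2 to 3 months. GFP+ cells were those that still held the label at that age, and GFP- cells were the live papillary cells without it. The labels call the mice controls and name no further allele. Neither the promoter that drives the fusion nor the number of animals behind a replicate is stated in the labels. The RNA of the sorted cells was amplified by global PCR before labelling. Per the labels GFP+ cDNA carried Cy5 and GFP- cDNA carried Cy3 on every array, with no dye swap, so a dye effect shared by the arrays is part of every ratio below.

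Interferons are secreted proteins that warn cells of infection. Type I interferons signal through JAK kinases to a complex that includes STAT2 and IRF9 and binds the interferon-stimulated response element (ISRE) of its target promoters, whereas interferon-gamma acts at the gamma-activated sequence (GAS). The targets encode antiviral effectors, sensors of viral RNA, and the proteasome subunits and peptide transporter that feed antigen presentation, and many have a low tonic level in tissue without infection.

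Promoter windows of 300 bases, 250 before and 50 after the annotated start, were taken from RefSeq (build GRCm38.p6) and matched 29 of the 34 members with 33 windows in all. Mx1, Mx2, Usp18, Rtp4 and Parp14 were not matched to a window. An ISRE core was searched on both strands as GAAA, any 2 bases and GAAA again, which reads TTTC, 2 bases and TTTC on the opposite strand. A GAS core was searched as the palindrome TTCNNNGAA. The ISRE core was present in a window of 15 of the 29 matched members (51.7%), against 3.99% of all 27025 genes with a window and 3.44% of all 32851 windows. By role it was in 11 of 17 type I targets, 1 of 4 transcription factors, 0 of 4 antigen processing genes and 3 of 4 GTPases. The GAS core was in a window of 9 of the 29 members (31.0%), against 9.55% of genes and 8.30% of windows. Such a match describes letters only, and shows neither binding nor a cause.

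The stretches below show the ISRE core in type I targets and in a GTPase, and the GAS core in a transcription factor and an antigen processing gene. They are written 5′ to 3′ on the strand of the gene, with the core in capitals. Isg15 lies at chr4:156200859-156200918 on the minus strand, Ifit3 at chr19:34583359-34583428 on the plus strand and Ifitm2 at chr7:140955982-140956041 on the minus strand. Igtp lies at chr11:58199486-58199545, Irf1 at chr11:53769894-53769953 and Psmb8 at chr17:34198070-34198129, all 3 on the plus strand.
Isg15: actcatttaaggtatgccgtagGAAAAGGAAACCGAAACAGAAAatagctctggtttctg
Ifit3: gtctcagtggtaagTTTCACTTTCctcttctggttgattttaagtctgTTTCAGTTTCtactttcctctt
Ifitm2: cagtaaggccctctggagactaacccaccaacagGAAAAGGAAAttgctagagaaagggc
Igtp: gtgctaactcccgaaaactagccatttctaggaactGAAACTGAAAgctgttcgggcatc
Irf1: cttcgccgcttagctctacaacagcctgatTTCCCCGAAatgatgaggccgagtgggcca
Psmb8: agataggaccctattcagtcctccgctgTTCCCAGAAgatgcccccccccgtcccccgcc
In Isg15 the cores overlap in 1 run, and Ifit3 holds a pair of separate cores on the opposite strand. The Igtp stretch also holds a GAS core, left in lower case, that starts 45 bases before the start site.

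Values are given below in 2 forms. A level is the intensity of a probe in 1 population divided by the negative control probe of the same array and population; it compares populations and arrays for 1 probe, not 1 gene with another. A log2 ratio is GFP+ over GFP- after an offset of 50 and loess normalization within the array, so it need not equal the quotient of the levels. The direction is likely rather than stated, since the deposited tables do not say which dye is the second intensity. It rests on the Agilent convention of Cy5 over Cy3, on the labelled dyes, and on data of replicates 3 to 5 that name the negative population first. With the opposite direction every sign below would turn.

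Replicate 1 stood apart from the other arrays. Across all genes its log2 ratios correlated with those of the other arrays at -0.16 to -0.06, while replicates 2 to 5 correlated among themselves at 0.05 to 0.20. Where leaving out replicate 1 turned the sign of a gene's printed mean or of a list's printed median, or moved it by over 1.5 times, the value without it is therefore given too. The share of probes above background was 59.3% to 72.5% in GFP+ cells and 57.7% to 75.3% in GFP- cells. Aqp2, the water channel of the collecting duct that runs through the papilla, was above background in both populations on all 5 arrays. Counting Aqp2, this held for 6 of the 8 tested collecting duct markers.

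For none of the tested interferon-induced genes did the difference between GFP+ and GFP- cells exceed the spread between arrays by limma's test, which does not show that the populations are alike. Limma called 0 of the 29 tested members at an adjusted p under 0.05, where 0% of all genes were called, and the members' adjusted p ran from 0.827 to 0.997. An unadjusted p under 0.05 was reached by 2 members, 6.90% of those tested against a background of 5.01%. These were Ifi44 with a mean above 0 (background 3.22% on that side) and Ifitm2 with a mean below 0 (background 1.79%). The mean log2 ratio was above 0 for 16 of 29 members (55.2%, background 49.8%), and the median of the member means was 0.04 (0.09 without replicate 1), against -0.00 over all genes (-0.03 without replicate 1). A mean of at least 2-fold in either direction was reached by 7 members (24.1%, background 25.8%): Ifit3, Ifi44, Ifitm1, Ifitm2, Ifitm3, Eif2ak2 and Psmb10. Eif2ak2 is among them by its fitted ratio only, since GFP- cells were below background and its bound, given below, is under 2-fold. The members' shares lay near those of all genes on each of these counts. In bulk populations such as these, fewer cells that express a gene and less of its RNA per cell cannot be told apart.

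The spread between arrays was large. The SD over 5 arrays had a median of 1.66 among members, from 0.36 for Igtp to 4.92 for Ifit2, against 1.45 over all genes. On replicates 1 to 5 there were 15, 15, 10, 17 and 15 of the 29 members that differed at least 2-fold, with a background of 49.5%, 47.9%, 42%, 48% and 48.1% of genes. Ratios above 0 were found for 15, 17, 17, 13 and 16 members, with a background of 52.9%, 52.8%, 51.6%, 52.1% and 49.8%. By the normalized ratio only Mx2 and Psmb10 kept 1 sign on all 5 arrays, both above 0. They are 6.90% of members, against 7.53% of all genes with 1 sign throughout, 4.64% above 0 and 2.89% below. In 6 members replicate 1 had one sign and the other 4 arrays the opposite sign, 20.7% against a background of 18%: Ifit3, Rsad2, Ifi44, Usp18, Ifitm1 and Igtp. Without replicate 1, limma called 0 of 28 tested members, where again 0% of genes were called, and 4 had an unadjusted p under 0.05 (14.3%, background 12%): Ifit3, Ifi44, Ifitm1 and Ifitm2. With all arrays the median of all tested members was 0.08, 0.12, 0.12, -0.39 and 0.12 on replicates 1 to 5.

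**Figure D1:**
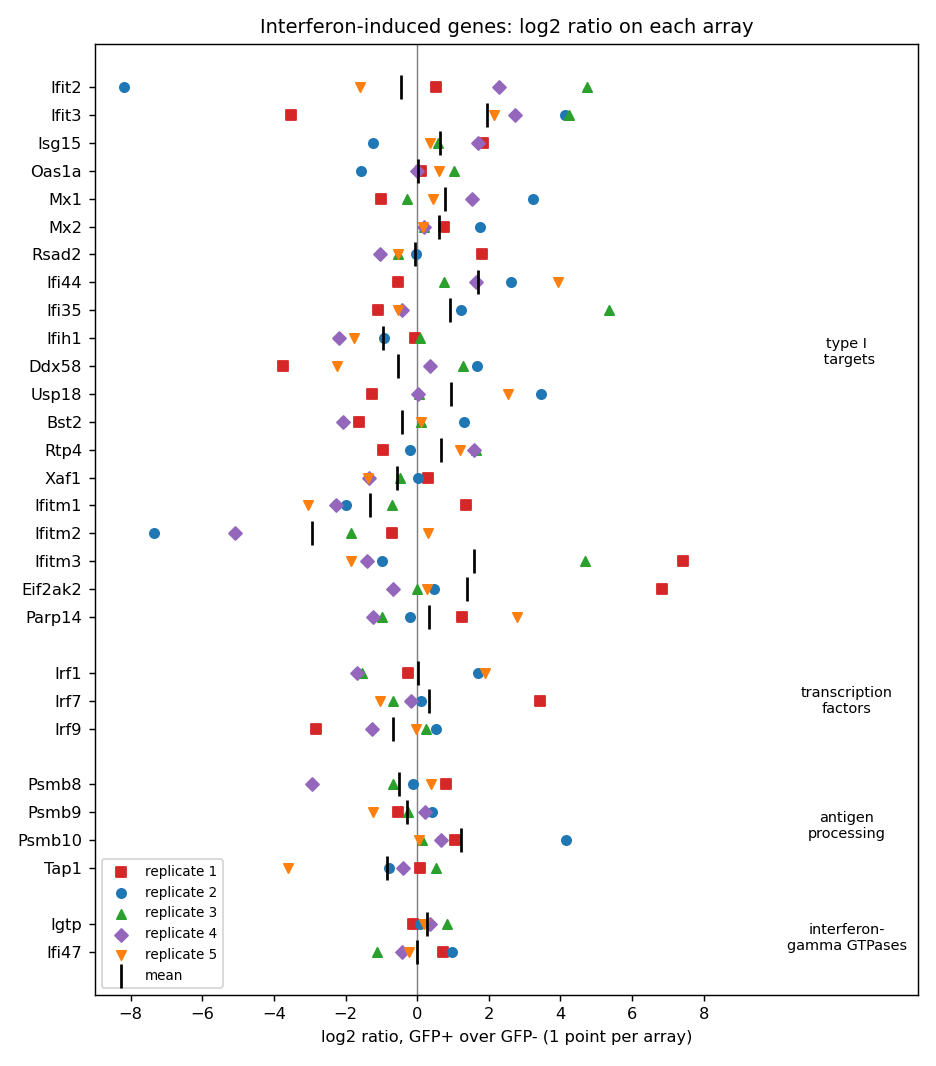
Log2 ratio of GFP+ over GFP- cells for each tested interferon-induced gene on each of the 5 arrays (points), with the mean as a bar, grouped by role. The points of most genes lie on both sides of 0; Mx2 and Psmb10 lie above 0 on all 5 arrays.

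The IFIT proteins bind foreign RNA and block its translation. Ifit3 had levels of 73.8, 910.4, 261, 676 and 1131 in GFP+ cells on replicates 1 to 5, against 1363, 38.5, 17.4, 58.7 and 136 in GFP- cells. GFP+ cells were higher on replicates 2 to 5 and lower on replicate 1, and the ranges of the populations overlapped through replicate 1. The log2 ratios of Ifit3 were -3.52, 4.13, 4.24, 2.74 and 2.14, with a mean of 1.94 ± 3.18 (SD, n = 5; limma adjusted p = 0.827). Without replicate 1 the mean was 3.31 ± 1.04 (SD, n = 4; limma adjusted p = 0.312), the lowest adjusted p of any member in that fit and still above the threshold. The probe that stands for its near-identical copy Ifit3b had -4.40, 5.64, 5.93, 3.92 and 1.31, the same sign as Ifit3 on 5 of 5 arrays; the deposited tables call that probe Ifit3, so the probes may not tell the copies apart.

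Ifit2 had levels of 189, 7.21, 379, 499 and 12.5 in GFP+ cells, against 226, 2093, 17.8, 59.9 and 30.2 in GFP- cells. Its log2 ratios of 0.54, -8.19, 4.75, 2.29 and -1.60 gave the widest spread among the members, with a mean of -0.44 ± 4.92 (SD, n = 5), and -0.69 without replicate 1. A further Ifit2 probe had -2.25, -0.28, 3.39, 3.23 and 1.59, so the probes shared a sign on replicates 2 to 4 and had opposite signs on replicates 1 and 5. Ifit1 was above background on replicate 5 alone, at 355 times the negative control in GFP+ cells and 157 times in GFP- cells, and reached at most 2.69 times on the other arrays.

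Isg15 encodes a ubiquitin-like protein that is conjugated to other proteins, and Usp18 the protease that removes it. Isg15 had levels of 93.7, 23.5, 56.5, 368 and 74.4 in GFP+ cells, against 49.0, 47.4, 49.3, 68.1 and 39.5 in GFP- cells. GFP+ cells lay above GFP- cells on 4 of 5 arrays, by ratios that the fit put at 1.84, -1.24, 0.58, 1.69 and 0.35, and the ranges overlapped. The mean of Isg15 was 0.64 ± 1.24 (SD, n = 5; limma adjusted p = 0.837), and it was 0.34 without replicate 1 and 1.12 without replicate 2. Usp18 had log2 ratios of -1.27, 3.45, 0.05, 0.01 and 2.53, and only replicates 2 and 5 were clearly above 0. Its mean was 0.95 ± 1.96 (SD, n = 5), and 1.51 without replicate 1.

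Among the classical antiviral effectors, Mx2 had the steadiest direction by the normalized ratio. Mx1 and Mx2 encode dynamin-like GTPases that trap viral components, Oas1a a synthetase whose product activates RNase L, and Rsad2 the antiviral enzyme viperin. Mx2 had levels of 28.3, 60.9, 17, 16.8 and 20.4 in GFP+ cells, against 28.3, 13.7, 16.9, 11.1 and 12.8 in GFP- cells. The log2 ratios were 0.76 and 1.74 on replicates 1 and 2 and 0.17 to 0.20 on the others. On replicates 1 and 3 the levels of the populations were nearly equal, so the ratios above 0 there are not seen in the levels. Its mean was 0.61 ± 0.68 (SD, n = 5; limma adjusted p = 0.827). Mx1, named as Mx2 was through the platform annotation, had -1.0, 3.23, -0.29, 1.53 and 0.43, with 3 arrays above 0 and 2 below.

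Oas1a had a mean log2 ratio of 0.04 ± 0.98 and Rsad2 one of -0.07 ± 1.10 (SD, n = 5 each), against 0.02 and -0.54 without replicate 1. By its brightest probe, Rsad2 was above 0 on replicate 1 alone, at 1.81, and had -0.04, -0.53, -1.03 and -0.53 on replicates 2 to 5. The other tested Rsad2 probe had 0.68, 2.17, -0.16, -0.19 and -1.53, and the mean over the tested probes was 0.06. Oasl2, an OAS-like protein, was not tested, with levels of 1.74 to 10.1 in GFP+ cells and 0.905 to 6.31 in GFP- cells.

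Ifi44, an interferon-induced cytoplasmic protein, was the member above 0 with the lowest unadjusted p. Its levels were 22.5, 26.9, 21.4, 25.4 and 129 in GFP+ cells, against 60.9, 1.88, 14.1, 4.80 and 4.88 in GFP- cells. GFP+ cells were higher on replicates 2 to 5, with GFP- cells below background on replicate 2, and lower on replicate 1. The log2 ratios were -0.53, 2.63, 0.75, 1.65 and 3.93, with a mean of 1.69 ± 1.71 (SD, n = 5; limma unadjusted p = 0.0489, adjusted p = 0.827). Without replicate 1 it was 2.24 ± 1.36 (SD, n = 4; limma adjusted p = 0.338). A further Ifi44 probe was below background in both populations on every array and was not tested.

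**Figure D2:**
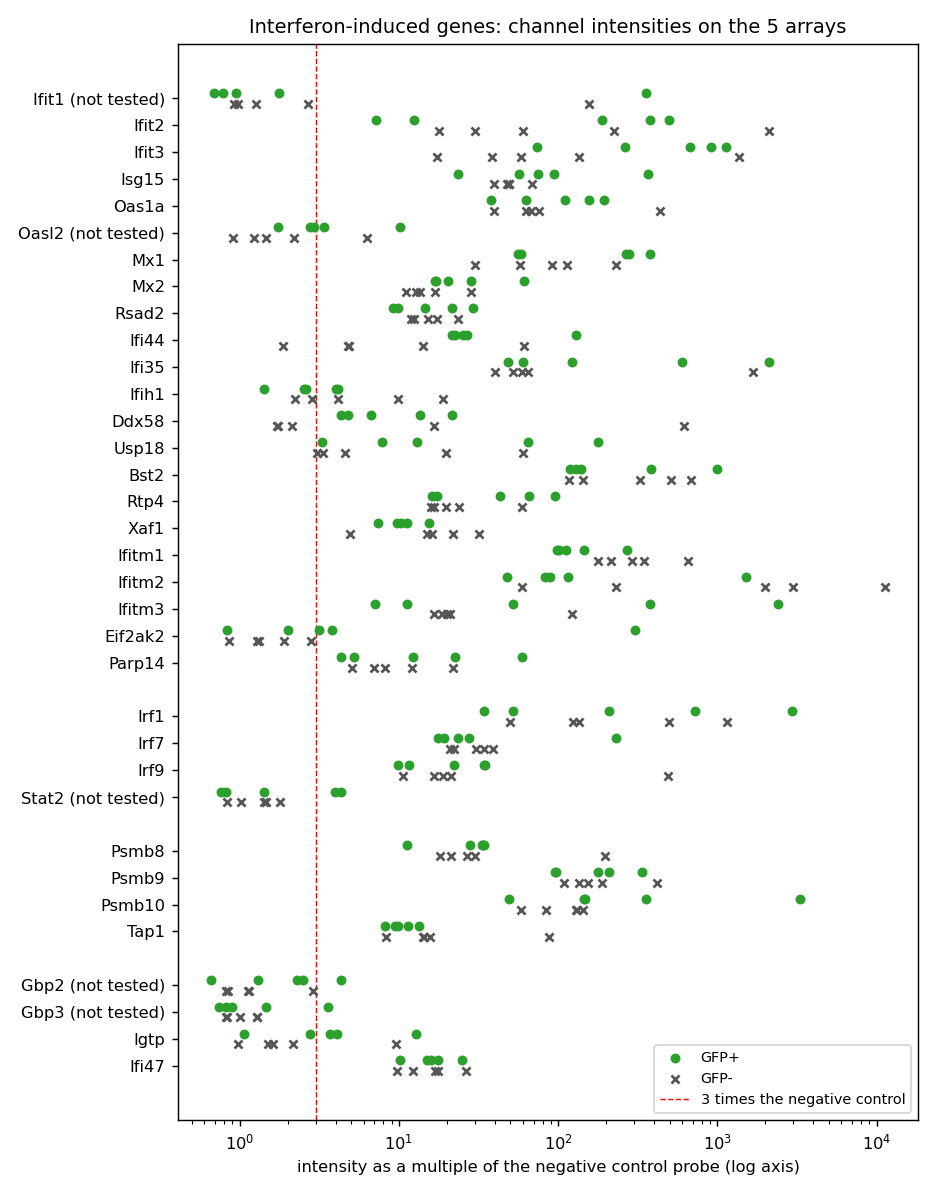
Levels of all 34 members (times the negative control probe, log axis), 1 point per array for GFP+ and 1 for GFP- cells, with a dashed line at 3 times the negative control. The members that were not tested lie mostly left of the line; the points of the populations overlap for Isg15, Ifit2 and most others.

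The RNA sensors Ifih1 (MDA5) and Ddx58 (RIG-I) start the signal that induces type I interferon, and Eif2ak2 (PKR) halts translation when it binds double-stranded RNA. Ifih1 had log2 ratios of -0.06, -0.94, 0.09, -2.17 and -1.75, with a mean of -0.97 ± 1.00 (SD, n = 5). It was dim, above background on 2 arrays in GFP+ cells and 3 in GFP- cells. The mean of both Ifih1 probes was -0.52, and without replicate 4, where the other probe was the brightest, the value was 0.03. Ddx58 had -3.75, 1.66, 1.28, 0.36 and -2.23, with 3 arrays above 0 and 2 below; its mean was -0.53, and 0.27 without replicate 1, with GFP- cells above background on 2 arrays. Eif2ak2 rested on 1 array: its GFP+ level was 302 on replicate 1 and 0.839 to 3.81 on the others, against 0.863 to 2.79 in GFP- cells.

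GFP- cells were below background for Eif2ak2 on all 5 arrays and GFP+ cells above it on 3, so its value is a bound. With the lowest signal above background taken for each dim GFP- value, the mean of GFP+ cells was 1.91-fold higher. The limma adjusted p of the fitted ratio was 0.827. GFP+ values were used as measured, also on replicates 3 and 4, where they were below background, so the bound is not strict. It rested on replicate 1, and without that array no fold can be given and the gene was not tested.

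The IFITM proteins sit in endosomal membranes and block viral fusion. Ifitm1 had levels of 272, 112, 101, 97.6 and 146 in GFP+ cells, against 178, 344, 213, 291 and 656 in GFP- cells. GFP+ cells were lower on replicates 2 to 5 and higher on replicate 1. The log2 ratios of Ifitm1 were 1.37, -1.97, -0.69, -2.28 and -3.06, with a mean of -1.33 ± 1.73 (SD, n = 5; limma adjusted p = 0.827), and -2.0 ± 0.98 without replicate 1 (SD, n = 4; limma adjusted p = 0.327).

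Ifitm2 had the lowest unadjusted p of the members. Its levels were 1508, 83.1, 47.9, 88.5 and 116 in GFP+ cells, against 2996, 11228, 229, 1995 and 58.9 in GFP- cells. GFP+ cells were lower on replicates 1 to 4 and higher on replicate 5, and the ranges overlapped. The log2 ratios were -0.71, -7.36, -1.83, -5.08 and 0.31, with a mean of -2.94 ± 3.20 (SD, n = 5; limma unadjusted p = 0.0410, adjusted p = 0.827), and -3.49 without replicate 1. A further Ifitm2 probe had -0.31, -10.63, -5.73, 3.02 and 0.07, with the opposite sign on replicate 4. On replicate 5 that probe was below background in both populations.

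Ifitm3 had levels of 2415, 11.2, 378, 7.10 and 52.1 in GFP+ cells, against 21.0, 20, 18.6, 16.6 and 121 in GFP- cells. GFP+ cells stood far above GFP- cells on replicates 1 and 3 and below them on the other arrays. The log2 ratios were 7.42, -0.98, 4.68, -1.39 and -1.83, with a mean of 1.58 ± 4.21 (SD, n = 5; limma adjusted p = 0.842) and of 0.12 without replicate 1. The 3 neighbouring family members thus had means on both sides of 0, and no array showed all 3 above 0.

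The remaining type I targets had means between -0.57 and 0.91. Ifi35, an interferon-induced leucine zipper protein, reached 5.34 on replicate 3 and lay between -1.08 and 1.23 elsewhere (mean 0.91 ± 2.63, SD, n = 5). Its mean was 1.40 without replicate 1 and -0.20 without replicate 3. Bst2, the tetherin that holds budding virions at the cell surface, had a mean of -0.43 ± 1.39 (SD, n = 5) and of -0.13 without replicate 1, with 3 arrays above 0. Parp14, an ADP-ribosyltransferase, had 1.26, -0.21, -0.97, -1.23 and 2.79. Rtp4, a chaperone of receptor transport, was above 0 on replicates 3 to 5 (1.64, 1.58 and 1.20) and below it on replicates 1 and 2. Xaf1, a pro-apoptotic factor whose probe the deposited tables call Fbxo39, had a mean of -0.57 ± 0.77 (SD, n = 5).

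Of the transcription factors of the response, Irf7, which amplifies type I interferon production, rested on replicate 1. Its levels were 229, 27.7, 17.6, 23.5 and 19.1 in GFP+ cells, against 39.2, 20.9, 34.4, 22.2 and 30.5 in GFP- cells. Apart from replicate 1, the populations differed less than 2-fold on 3 of 4 arrays by the fitted ratios of 0.12, -0.68, -0.18 and -1.05. The mean was 0.33 ± 1.79 (SD, n = 5), and -0.45 ± 0.52 without replicate 1 (SD, n = 4).

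Irf9, the DNA-binding subunit of the type I complex, had -2.82, 0.52, 0.24, -1.27 and -0.03. The mean of this probe over all 5 arrays was -0.67. Without replicate 1 another probe of Irf9 was the brightest, with a mean of 0.67. That other probe had a mean of 0.57 over all 5 arrays, so the sign turned with the probe. The mean of both probes was -0.05. Irf1, an early target of interferon-gamma that carries the GAS core shown above, had -0.26, 1.70, -1.54, -1.69 and 1.90, with a mean of 0.02 ± 1.72 (SD, n = 5), 0.09 without replicate 1 and 0.53 over all 3 of its probes. Further Irf1 probes had -0.70, 6.17, 0.79, 0.95 and 0.59, and -0.77, 0.26, 0.03, 0.28 and 0.24. All 3 probes shared a sign on replicates 1, 2 and 5. Stat2, a subunit of the type I complex, was not tested, with levels of 0.769 to 4.36 in GFP+ cells and 0.836 to 1.79 in GFP- cells. The 3 tested factors had a median of 0.02 (0.09 without replicate 1) and a mean of -0.11, which differ in sign.

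Antigen processing is represented by the interferon-inducible proteasome subunits Psmb8, Psmb9 and Psmb10 and by Tap1, a subunit of the transporter that carries peptides to MHC class I. Psmb10 had levels of 144, 3284, 49.0, 355 and 147 in GFP+ cells, against 129.9, 143, 58.7, 131 and 84.3 in GFP- cells. GFP+ cells were far higher on replicate 2 and the populations were close on replicates 3 and 5. On replicate 3 the GFP+ level was the lower one, and the ratio was above 0 only after normalization. The log2 ratios were 1.06, 4.16, 0.13, 0.67 and 0.06, with a mean of 1.22 ± 1.70 (SD, n = 5; limma adjusted p = 0.827), and 0.48 without replicate 2.

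Psmb9 had levels of 177, 335, 97.1, 208 and 95.9 in GFP+ cells, against 416, 189.7, 154, 109 and 135 in GFP- cells, with 2 arrays above 0 and 3 below (mean log2 ratio -0.27 ± 0.65, SD, n = 5). Psmb8 had log2 ratios of 0.81, -0.13, -0.69, -2.94 and 0.39 by its brightest probe, lowest on replicate 4. The mean was -0.51, and it was -0.84 without replicate 1 and 0.10 without replicate 4. The other tested Psmb8 probe had -1.02, 0.27, -0.46, 0.78 and -0.27, highest on replicate 4. Tap1 had levels of 9.88, 9.48, 11.4, 13.5 and 8.16 in GFP+ cells, against 15.6, 14.4, 8.32, 14.2 and 87.6 in GFP- cells.

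Only replicate 5 set the populations far apart for Tap1, with a log2 ratio of -3.60, and the mean was -0.83 ± 1.62 (SD, n = 5; limma adjusted p = 0.827), and -0.14 without replicate 5. On the same array 8 of the 15 tested leukocyte markers had a log2 ratio above 0, with a median of 0.09. They ran from -8.72 for Lyz2, with Ptprc (CD45) at -4.77, to 3.22 for Adgre1. The part of leukocytes in the Tap1 value was not tested. The promoter windows of Psmb9 and Tap1 share 275 bases, as the genes are neighbours read in opposite directions, and Psmb9 and Tap1 had opposite signs on 4 of 5 arrays.

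The interferon-gamma GTPases guard vacuoles that hold intracellular pathogens. Igtp was dim, with levels of 1.07 to 12.7 in GFP+ cells and 0.979 to 9.61 in GFP- cells. GFP+ cells were above background on 3 arrays and GFP- cells on 1. It had the smallest spread of the tested members (0.27 ± 0.36, SD, n = 5), but with the deposited ratio the Igtp mean was 0.66, a move of over 1 SD. Ifi47 had log2 ratios of 0.74, 0.96, -1.13, -0.42 and -0.22, with a mean of -0.01 ± 0.86 (SD, n = 5), and -0.20 without replicate 1. Gbp2 and Gbp3, the guanylate-binding proteins, reached at most 4.30 and 3.59 times the negative control in GFP+ cells, and 2.89 and 1.29 times in GFP- cells.

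The type I targets were then set against the antigen processing genes. Of 20 tested type I targets, 12 had a mean above 0, with a median of 0.47, while 1 of 4 antigen processing genes did, with a median of -0.39. Without replicate 1 the medians were 0.12 and -0.53. The difference of the medians with all arrays was 0.86, but it did not appear array by array. The median of type I targets minus that of antigen processing genes was -0.42, -0.16, 0.22, -0.13 and 0.81 on replicates 1 to 5, above 0 on 2 arrays and below on 3. Its mean over arrays was 0.06 ± 0.48 (SD, n = 5). The difference of the medians of means was 0.65 without replicate 1 and 0.37 without replicate 5. The tested members with an ISRE core in their promoter window, 11 in number, had a median of 0.04, and the 13 without one a median of -0.27 (0.07 and -0.21 without replicate 1).

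**Figure D3:**
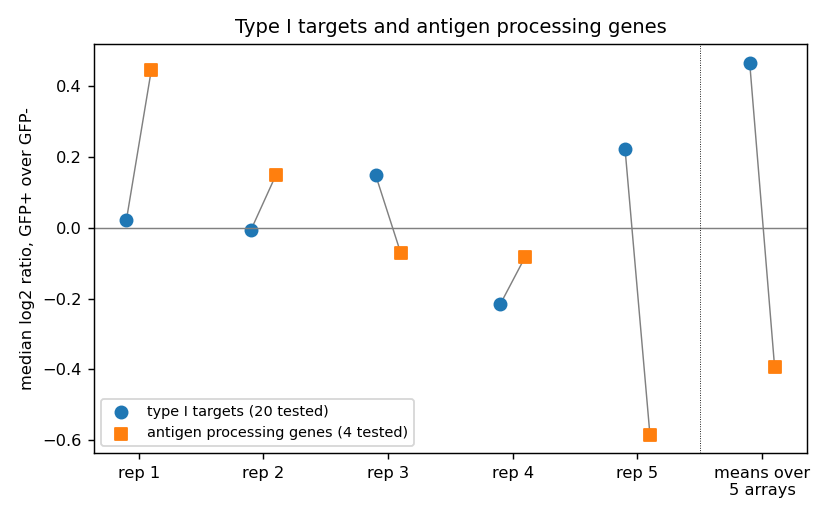
Median log2 ratio of GFP+ over GFP- cells for the type I targets and for the antigen processing genes on each of the 5 arrays, and, right of the dotted line, the median of the members' means. The type I median is the higher one on replicates 3 and 5 and the lower one on replicates 1, 2 and 4.

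Different probes of 1 gene were compared on each array. Among members, 8 genes had more than 1 tested probe, giving 10 pairs, and the probes of a pair shared a sign in 32 of 50 comparisons on an array (64.0%). Over all genes, 11525 such pairs shared a sign in 52.9% of comparisons. The median absolute difference between paired probes was 1.34 log2 units among members and 1.47 over all genes. The probes of Rsad2, Ifih1, Irf9 and Ifitm2 shared a sign on 4 of 5 arrays, and those of Parp14 and Psmb8 on 1 of 5. Such counts include arrays on which a probe was below background, as for Ifitm2 on replicate 5.

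**Figure D4:**
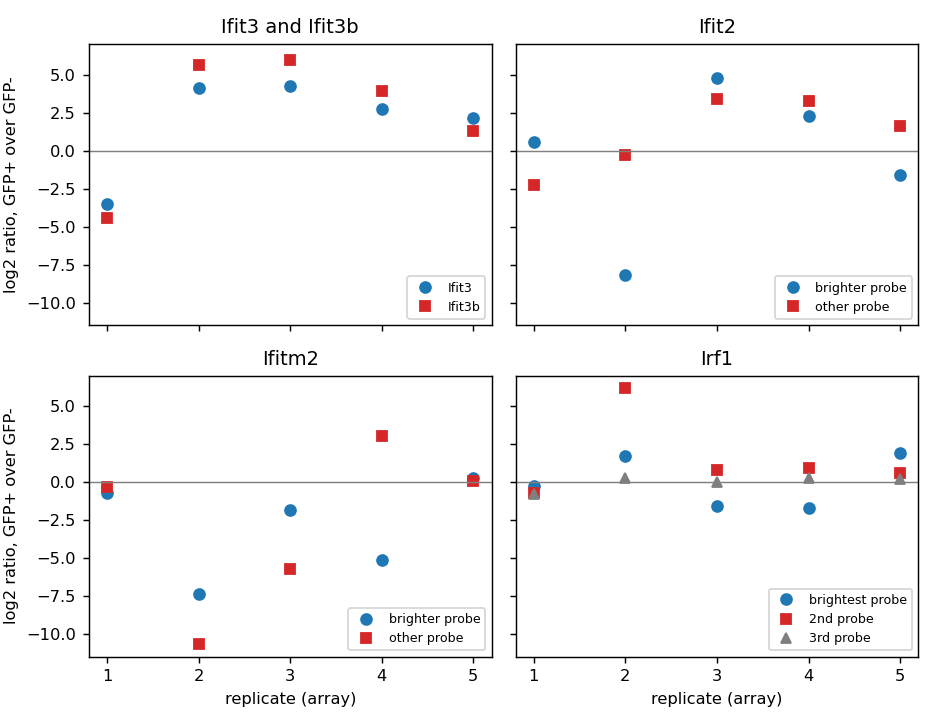
Log2 ratio of GFP+ over GFP- cells on each array for each tested probe of Ifit2, Ifit3 with Ifit3b, Ifitm2 and Irf1. The probes of Ifit3 and Ifit3b share a sign on all 5 arrays, whereas the probes of Ifit2 part on replicates 1 and 5.

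Of 74 further genes of interferon signalling and response, 63 were tested, 28 had a mean above 0 (background 49.8%), and limma called 0 at an adjusted p under 0.05. Their median was -0.10, and -0.37 without replicate 1. An unadjusted p under 0.05 was reached by 4 (background 5.01%), named here after their values were seen: Irf8, Trim25 and Erap1 above 0 and B2m below. B2m, the light chain of MHC class I, had -1.47, -6.27, -1.46, -3.65 and -0.02, below 0 on all 5 arrays, with a mean of -2.57 ± 2.44 (SD, n = 5; limma unadjusted p = 0.0282, adjusted p = 0.827). On replicate 5 both populations were below background for this probe, and the value rested on the probe: the B2m probe that was bright enough on all 5 arrays had a mean of -0.05, and the mean of all 3 tested probes was -0.95. The heavy chain H2-K1 had 2.12, -2.97, 1.83, -2.50 and -2.87 by its brightest probe, above 0 on replicates 1 and 3. The mean of its 4 tested probes was 0.18, against -0.88 for the brightest. The brightest probe had -1.63 without replicate 1. Without replicate 5 another H2-K1 probe was the brightest, and the value was 0.42.

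The receptor chains Ifnar1 and Ifngr1 had means of 0.10 ± 0.64 and 0.41 ± 0.48 (SD, n = 5 each), and Ifngr1 had 0.27 without replicate 1. Ifnar2 had a mean of -3.33 ± 4.76 (SD, n = 5), with -10.89 on replicate 4 and a mean of -1.44 without that array. Its sign turned to 0.70 with the probe that was bright enough on all 5 arrays, and the mean of both probes was -1.31. The kinase Jak1 had 1.55 ± 4.22 (SD, n = 5), but 3.31 without replicate 2, 0.59 without replicate 3, 1.01 without replicate 4 and 0.08 over its 3 probes. Tyk2 had -1.16 ± 3.11 (SD, n = 5), but -0.41 without replicate 1 and -0.31 without replicate 3. Of the further antigen processing genes, Tap2, the partner of Tap1, had -0.43 ± 1.26, the proteasome activator subunit Psme1 0.57 ± 3.73 and the MHC class I transactivator Nlrc5 -1.07 ± 1.68 (SD, n = 5 each). Without replicate 1 Tap2 had -0.97 and Psme1 0.23, and Psme1 turned to -0.38 without replicate 3, while Nlrc5 had -0.35 without replicate 2.

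Markers of leukocytes, which express many interferon targets, were present in both populations. Of 18 markers 15 were tested, and 6 of these had a mean above 0, with a median of -0.37. Their summed level ran from 284 to 3915 times the negative control in GFP+ cells and from 433 to 3705 times in GFP- cells. This sum runs over different probes, and single probes carried its upper ends, Cd14 at up to 3198 times in GFP+ cells and Lyz2 at up to 3236 times in GFP- cells. The neutrophil marker S100a8 stayed below background in both populations on all 5 arrays. The median of the leukocyte markers was -0.25, 0.30, -0.31, -0.16 and 0.09 on replicates 1 to 5, and that of the collecting duct markers -3.46, 3.49, 1.79, 0.08 and 0.23. The collecting duct markers thus lay lowest on replicate 1 and highest on replicate 2, and the part of cell makeup in the members' spread was not tested.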

How the data were processed

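The deposited table of each 2-colour Agilent array holds, per the file headers, 2 linear channel intensities per probe, their log10 ratio and a p-value. The tool that the submitters' processing notes list is Agilent Feature Extraction (version not given in the sources used here). No call rests on the p-value deposited with a single array. RNA was amplified by a global PCR protocol (SuperAmp), per the labels, and such amplification can shift the relative amounts of transcripts. Its part in the spread between arrays was not tested.

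The deposited intensities were raised by an offset of 50, log2 was taken, and each array was normalized by loess (span 0.3, control probes at weight 0). Probes marked by the authors' software (14 to 41 per array) were left out. Of 41174 non-control probes, 34772 had 1 gene symbol, from RefSeq accessions, the platform annotation or the deposited names. Probes at 3 times the single negative control probe in at least 1 population on at least 3 arrays were tested, and the brightest stood for its gene. Limma 3.58.1, run in R 4.3.3, tested whether the mean log2 ratio differed from 0 (two-sided, lmFit with eBayes, Benjamini-Hochberg adjustment over 17754 genes, threshold 0.05). SD is over arrays, and 5 arrays limit the precision. Each array holds both populations of its replicate, which pairs them. The procedure was tested on simulated data. With the real spread only the estimated means were checked. The check of calls used a far smaller spread than these arrays had, so it does not show which changes could be called here.

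The text names all members, a fixed set of 12 further pathway genes, of which 1 is not reported here, and others by counts. The members, roles and lists were chosen with earlier results of these data known. Alternatives were the offset, the normalization, the deposited ratio, the filter, the probe rule, the pairing and each array left out. The numbers of animals and any scan batch are not stated in the labels, so p-values measure the spread between these replicates.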

Additional observations from a re-analysis of the deposited data

Results flagged for a closer look

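In 7 of 48 values examined 1 array lay far from the other 4, measured by its gap to the nearest array over the whole range, where a normal spread gives about 1 in 20. Among single genes it was 6 of 41 (14.6%), and the same measure picked out 10.8% of all 17694 genes with 5 values. Replicate 1 was that array for Ifit3 (-3.52), Eif2ak2 (6.84), Irf7 (3.43) and Tap2 (1.73), and it is also the array whose ratios correlated below 0 with all the others across genes. Replicate 2 was that array for Psmb10 (4.16) and for Nlrc5 (-3.97). The median of all tested interferon-induced genes stood apart on replicate 4, at -0.39. The cause of these values was not tested.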

How the results depend on the processing

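Under each of the 14 alternatives limma called 0 genes and 0 interferon-induced genes. Genes at an unadjusted p under 0.05 numbered 889, against 616 to 2032 with 1 array left out (the highest without replicate 1) and 598 with the 10 channels as unpaired samples. The array pairs the populations, and dropping that pairing left 2 members at an unadjusted p under 0.05, a member median of 0.04 and a type I minus antigen processing difference of 0.86. The member median was 0.27 with the mean of all tested probes of a gene, and 0.0444 to 0.278 with 1 array left out (the highest without replicate 4). It was -0.00 with an offset of 16. The type I minus antigen processing difference was 0.37 to 0.91 with 1 array left out, lowest without replicate 5. No member changed a call; signs of uncalled members turned most often without replicate 5, for 6 of 26. The single negative control probe sets the background limit, so values near 3 times it are weakly measured.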
